A study of Mus musculus with 24 samples.

Results

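Polycomb complex genes were followed through CD4+ T helper cells in 4 states and 2 genotypes. The members were fixed by name: Ezh1, Ezh2, Eed and Suz12 of Polycomb repressive complex 2 (PRC2), and Ring1, Rnf2, Bmi1, Phc1, Phc2 and Cbx7 of Polycomb repressive complex 1 (PRC1). All probes carrying one of these symbols in the deposited table were taken, which gave 15 of the 25697 probes. Of the 15, 13 were detected (p up to 0.02) on 1 array or more, and all 10 genes kept at least 1 probe among the 14246 probes and 10418 genes kept in all. A second probe each for Ezh1 and Ezh2 was detected on 0 of 24 arrays and was not used further. Where a gene had several kept probes, the brightest stands for it.

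The samples were Naïve CD4+ T cells and Th2 cells, both resting and stimulated, each from WT mice and from mice lacking BAF180 in T cells, with 3 arrays (replicates A, B and C) per group and 24 arrays in total. BAF180, encoded by Pbrm1, is a subunit of the PBAF form of the SWI/SNF chromatin remodeling complex, and its floxed alleles were deleted in T cells late in thymocyte development by a Cre transgene driven by the CD4 promoter. Mice were 4 to 6 weeks old and are called Balb/c in the labels, although the methods of the study describe a different background. Resting Naïve cells (CD4+CD62L+) came from spleen and lymph nodes at 95% purity. Stimulated Naïve cells had been cultured for 24 h on plates coated with anti-CD3 (1 ug/ml) and anti-CD28 (2 ug/ml). For Th2 cells the coated plates were combined with IL-4 (10 ng/ml) and anti-IFN-gamma (10 ug/ml), with IL-2 (100 U/ml) from the next day on, and stimulated Th2 cells then received PMA (50 ng/ml) and ionomycin (500 ng/ml) for 1.5 h.

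Polycomb complexes hold genes in a repressed state through chromatin. PRC2 methylates histone H3 through its catalytic subunit EZH2 or EZH1, which needs EED and SUZ12, and PRC1 places ubiquitin on histone H2A through the RING proteins and reads the PRC2 mark through CBX proteins. EZH2 is known as the form of dividing cells and EZH1 as the form of resting cells, and SWI/SNF complexes were first described in flies as genetic opponents of Polycomb repression.

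Levels are background-corrected, quantile-normalized intensities on the log2 scale, so that a difference of 1 is a 2-fold change. A difference between states was called at an adjusted p below 0.05 (limma, Benjamini-Hochberg over all 14246 probes). Arrays detected 8047 to 10689 probes each, and replicate arrays correlated at 0.949 to 0.989. Pbrm1, the deleted gene, was lower in BAF180-deficient than in WT cells in all 4 states. The log2 differences were -1.01 and -1.63 in resting and stimulated Naïve cells and -1.86 and -1.42 in resting and stimulated Th2 cells, and no array of a deficient group overlapped its WT group. Markers of other cells differed between the states. The summed level of 5 myeloid genes, on the linear intensity scale, was 1808 to 5000 on the 6 resting Naïve arrays and 103 to 233 on the other 18, with Lyz2 and Cd14 detected on resting Naïve arrays only. The summed level of 5 B cell genes was 4859 to 8149 on the resting Naïve arrays and 235 to 1534 on the others. For 3 CD8 T and NK cell genes it was 376 to 801 on the resting Naïve arrays and 126 to 414 on the others. In stimulated Naïve cells this sum was lower in BAF180-deficient (141 to 202) than in WT cells (225 to 333). The genotypes overlapped in the other states, and the share of all probes without overlap in stimulated Naïve cells was not counted. Cd8b1 was the brightest of the 3 genes, at a mean of 7.71 over 24 arrays, and weighs most in the sum. In such bulk samples, fewer cells of a type and less RNA per cell cannot be told apart.

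The probes of both catalytic PRC2 subunits are shown because the Ezh2 and Ezh1 results rest on them. The Ezh2 probe starts at base 407 of its transcript and the Ezh1 probe at base 979 of its own, both printed 5′ to 3′ as deposited:
Ezh2: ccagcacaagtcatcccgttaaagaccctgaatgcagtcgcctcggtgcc
Ezh1: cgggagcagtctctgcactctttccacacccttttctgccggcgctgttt
Ezh2 lies at chr6:47530274-47595270 and Ezh1 at chr11:101191115-101226463 (GRCm38.p6).

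Ezh2 was lowest in resting Naïve cells and higher in each of the other states. In WT cells the 3 arrays read 8.07, 8.08 and 8.66 in resting Naïve, 10.35, 10.33 and 10.48 in stimulated Naïve, 9.88, 9.70 and 10.22 in resting Th2 and 9.08, 9.43 and 9.47 in stimulated Th2 cells. In BAF180-deficient cells they read 8.62, 7.98 and 8.15, then 10.29, 10.35 and 10.39, then 9.88, 9.95 and 9.91, and then 9.32, 9.46 and 9.59. In both genotypes the order of the states was stimulated Naïve, resting Th2, stimulated Th2 and resting Naïve, and no arrays of neighboring states overlapped. Stimulation of Naïve cells raised Ezh2 by 2.11 ± 0.18 (SE, n = 3 arrays per group), or 4.33-fold, in WT cells, with an adjusted p of 6.0e-09 by limma. The rise was 2.10 in BAF180-deficient cells (adjusted p = 7.3e-09). Resting Th2 cells exceeded resting Naïve cells by 1.66 in WT and 1.67 in deficient cells, 3.17-fold in each, with adjusted p = 3.0e-07 for both. Both comparisons share the resting Naïve arrays. These 4 differences of the brightest probe passed the test under every other processing tried and with any 1 array left out.

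Stimulation of Th2 cells went the other way for Ezh2. It fell by 0.61 ± 0.18 (SE) in WT cells (adjusted p = 0.012), and this call was lost without resting Th2 WT replicate C (adjusted p = 0.082) or without stimulated Th2 WT replicate A (adjusted p = 0.078). In deficient cells the difference was -0.46 with an adjusted p of 0.062, and it passed with the replicate letter, or the letter within genotype, as a block (adjusted p = 0.044 and 0.038), with only the arrays compared (0.020) and without background correction (0.046). A second, much dimmer Ezh2 probe, detected on 11 of 24 arrays, was not detected on any resting Naïve array. In WT cells it was at least 1.04-fold higher in stimulated Naïve and at least 1.03-fold higher in resting Th2 than in resting Naïve cells (adjusted p = 0.015 and 0.019). It did not pass the test between the WT Th2 states (-0.32, adjusted p = 0.27). In deficient cells it kept the call with Naïve stimulation, but resting Th2 minus resting Naïve cells fell short (0.49, adjusted p = 0.060).

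Ezh1 moved opposite to Ezh2 when Naïve cells were stimulated. WT arrays read 5.62, 5.51 and 5.41 in resting Naïve cells against 4.55, 4.84 and 4.53 in stimulated Naïve cells, with no overlap. The fall was 0.87 ± 0.22 (SE; adjusted p = 0.0027), and only 1 of the 3 stimulated arrays detected the probe. It passed the test under all other processing, with a smaller difference of -0.49 without background correction and -0.46 with Z-scores of the uncorrected intensities. BAF180-deficient arrays read 5.98, 5.10 and 5.27 against 5.15, 4.55 and 4.49, overlapping slightly, with a fall of 0.72 (adjusted p = 0.011) that did not pass the test without resting Naïve KO replicate A (-0.45, adjusted p = 0.10) or without stimulated Naïve KO replicate B or C (adjusted p = 0.053 and 0.062), or with only the arrays compared (adjusted p = 0.090). Without background correction and with Z-scores of the uncorrected intensities it was -0.41 and -0.42. In Th2 cells Ezh1 lay between 4.68 and 5.34 over both genotypes and states, and none of its 4 other state differences passed the test. The difference of resting Th2 from resting Naïve deficient cells, -0.52, did so with the letter within genotype as a replicate block (adjusted p = 0.035), and without resting Naïve KO replicate B (adjusted p = 0.034) or resting Th2 KO replicate A (adjusted p = 0.028).

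Eed, the subunit that binds methylated histone H3 and stimulates the enzyme, was lowest in resting Naïve cells. WT arrays read 6.81, 6.36 and 6.27 in resting Naïve, 7.09, 7.68 and 7.85 in stimulated Naïve, 7.08, 7.06 and 7.33 in resting Th2 and 7.92, 7.68 and 7.72 in stimulated Th2 cells. Each of the 3 other states lay above resting Naïve cells without overlap. The rise with Naïve stimulation passed the test in WT (1.06 ± 0.28 SE, 2.08-fold, adjusted p = 0.0038) and in deficient cells (1.15, adjusted p = 0.0021). Resting Th2 minus resting Naïve cells gave 0.68 in WT (adjusted p = 0.065) and 0.69 in deficient cells (adjusted p = 0.060), short of the threshold, but calls appeared under other processing. With Z-scores of the uncorrected intensities both passed (adjusted p = 0.023 and 0.015), the WT difference passed with only the arrays compared (adjusted p = 0.036) or without resting Naïve WT replicate A (adjusted p = 0.047), and the deficient one with a stricter filter (adjusted p = 0.047). Stimulated Th2 cells exceeded resting Th2 cells by 0.62 in WT (adjusted p = 0.11, or 0.013 with only the arrays compared) and by 0.77 in deficient cells, where the test was passed (adjusted p = 0.045). The latter call was lost without replicate A or B of either Th2 group (adjusted p = 0.11 to 0.17), with the letter within genotype as a block (0.060), without a filter on dim probes (0.095) and with Z-scores of the uncorrected intensities (0.11).

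Suz12, which holds PRC2 together, varied little, between 10.17 and 11.05 over all WT arrays. None of its 3 WT state differences passed the test, except that Th2 stimulation gave -0.50 (adjusted p = 0.021) without resting Th2 WT replicate C. In BAF180-deficient cells it rose by 0.47 with Naïve stimulation (adjusted p = 0.019) and fell by 0.52 with Th2 stimulation (adjusted p = 0.016). The first call was lost without replicate C of either Naïve group (adjusted p = 0.063 and 0.073) and with Z-scores of the uncorrected intensities (0.24, adjusted p = 0.20), and the second without resting Th2 KO replicate A or B or stimulated Th2 KO replicate A (adjusted p = 0.065 to 0.091) and with those Z-scores (adjusted p = 0.090).

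**Figure D1:**
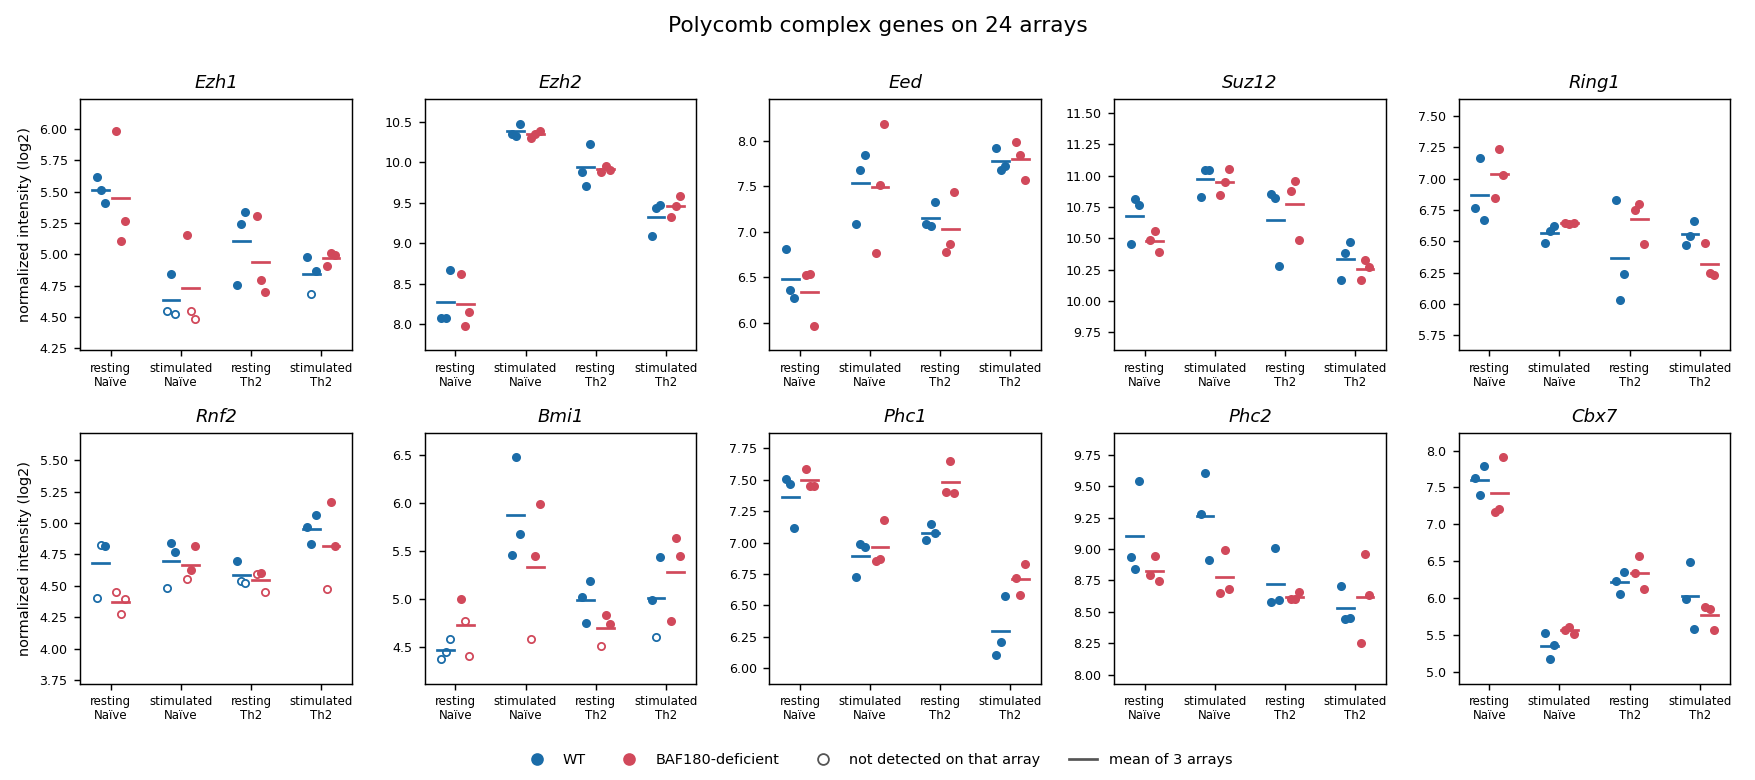
Normalized intensity (log2) of each Polycomb complex gene by cell state, with 3 WT (blue) and 3 BAF180-deficient (red) arrays per state, open circles for arrays that did not detect the probe and lines for group means; each panel has its own vertical axis. Ezh2 sits between 7.98 and 8.66 in resting Naïve cells and between 9.08 and 10.48 in all other states, while Cbx7 falls from 7.17 to 7.91 in resting Naïve cells to between 5.18 and 6.58 elsewhere.

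Cbx7, the chromodomain subunit of PRC1, was highest in resting Naïve cells. WT arrays read 7.62, 7.39 and 7.79 in resting Naïve, 5.53, 5.18 and 5.38 in stimulated Naïve, 6.23, 6.06 and 6.36 in resting Th2 and 6.00, 6.49 and 5.59 in stimulated Th2 cells. BAF180-deficient arrays read 7.17, 7.21 and 7.91, then 5.57, 5.61 and 5.52, then 6.34, 6.58 and 6.12, and then 5.89, 5.86 and 5.57. All 6 resting Naïve arrays lay above all 18 others. With Naïve stimulation Cbx7 fell by 2.24 ± 0.21 (SE) in WT cells, 4.73-fold, with an adjusted p of 3.0e-08, and by 1.86 in deficient cells (3.63-fold, adjusted p = 3.9e-07). Resting Th2 minus resting Naïve gave -1.39 in WT (2.61-fold lower, adjusted p = 2.7e-05) and -1.08 in deficient cells (2.12-fold, adjusted p = 0.00038). These 4 calls held under all other processing and with any 1 array left out, although Z-scores of the uncorrected intensities gave -0.89 in WT and -0.62 in deficient cells for the second comparison. With Th2 stimulation the difference was -0.19 in WT (adjusted p = 0.61) and -0.57 in deficient cells, where the adjusted p was 0.047, or 0.056 with the replicate letter as a block. The latter call was lost in 9 of 13 alternatives, among them without resting Th2 KO replicate A or B or any 1 stimulated Th2 KO array (adjusted p = 0.067 to 0.19).

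Proliferation genes and markers of other cells also differed between the states compared for Ezh2 and Cbx7. Of 13 kept proliferation genes, 12 rose with Naïve stimulation in WT cells, beside 23.6% of all probes. In WT cells 12 were higher in resting Th2 than in resting Naïve cells (18.4% of probes), while 8 fell with Th2 stimulation (14.3%). The summed linear level of the 13 genes in WT cells was 2822 to 3386 in resting Naïve and 8934 to 11126 in stimulated Naïve cells. It was 7874 to 11196 in resting Th2 and 3645 to 5083 in stimulated Th2 cells. Over the 24 arrays, Ezh2 and the log2 of this sum correlated at r = 0.93 and Cbx7 and the sum at r = -0.74, which describes arrays that cluster by state. From resting to stimulated Th2 WT cells the sum was lower, and Cbx7 overlapped between both (6.06 to 6.36 and 5.59 to 6.49). The 5 myeloid genes were all lower in stimulated Naïve and in resting Th2 than in resting Naïve WT cells. Over all probes, 20% and 16% were called lower in these comparisons. The myeloid sum was highest, at 5000, on resting Naïve WT replicate C, without which the Ezh2 differences were 2.31 and 1.86 and the Cbx7 differences -2.15 and -1.29. The part of proliferation and of other cells in these differences was not tested.

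**Figure D2:**
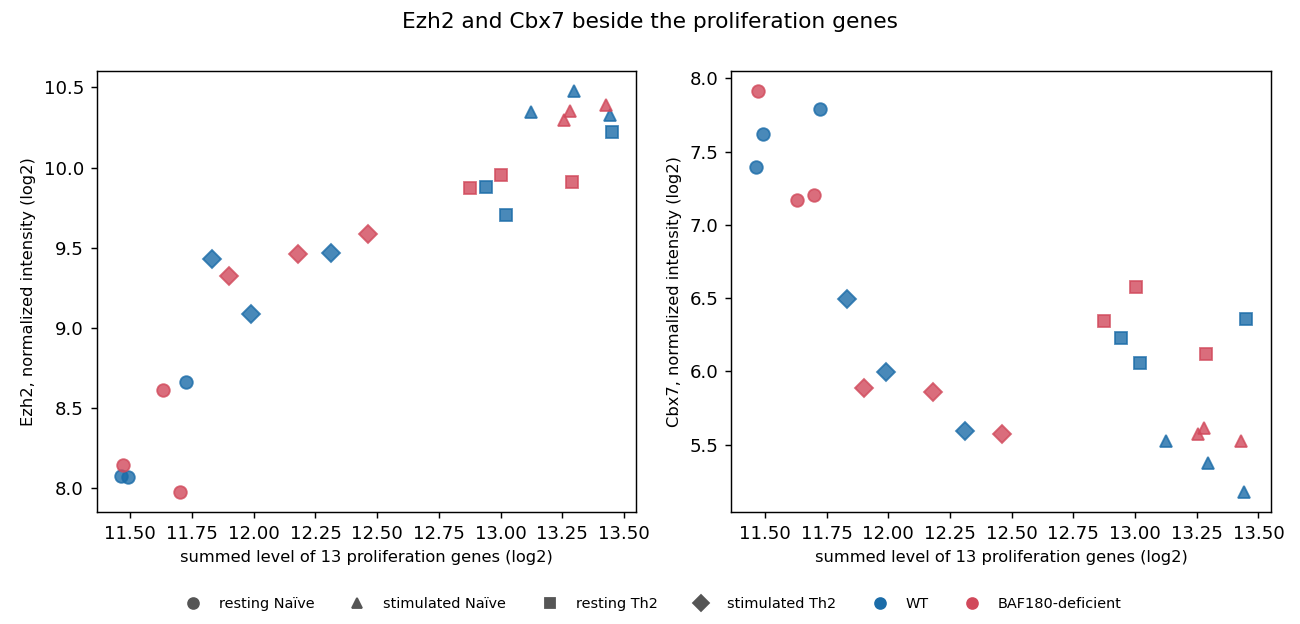
Ezh2 (left) and Cbx7 (right) on each of the 24 arrays, in normalized log2 intensity, against the log2 of the summed linear intensity of 13 proliferation genes, with symbols for cell state and colors for genotype. Ezh2 climbs with the sum across the states (r = 0.93). Cbx7 is highest on the 6 resting Naïve arrays and runs opposite to the sum (r = -0.74). The sums are lower in stimulated than in resting Th2 cells, and WT Cbx7 overlaps between both.

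Bmi1, a Polycomb ring finger protein that partners the RING ligases, was not detected on any resting Naïve WT array (4.37, 4.44 and 4.58) and read 5.45, 6.48 and 5.67 in stimulated Naïve WT cells. The groups did not overlap, and the rise was at least 2.01-fold against the detection limit, with measured group means differing by 1.40 (adjusted p = 0.00088). The call held under all other processing, but the difference was 0.83 without background correction and 0.68 with Z-scores of the uncorrected intensities, below that bound. BAF180-deficient arrays read 4.998, 4.77 and 4.41 against 4.58, 5.45 and 5.98 and overlapped, with a difference of 0.61 (adjusted p = 0.12), or 0.99 without stimulated Naïve KO replicate A (adjusted p = 0.011). In Th2 cells Bmi1 lay between 4.51 and 5.63 and no difference passed the test.

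Phc1, a polyhomeotic subunit of PRC1, was lower after both stimulations. WT arrays read 7.51, 7.47 and 7.12 in resting Naïve, 6.73, 6.99 and 6.97 in stimulated Naïve, 7.02, 7.15 and 7.07 in resting Th2 and 6.10, 6.21 and 6.57 in stimulated Th2 cells. Stimulated Th2 arrays lay below all resting Th2 arrays in each genotype, and Phc1 fell by 0.79 ± 0.14 (SE) in WT cells (adjusted p = 0.00025) and by 0.78 in deficient cells (adjusted p = 0.00034). With Naïve stimulation Phc1 fell by 0.47 in WT (adjusted p = 0.011) and 0.53 in deficient cells (adjusted p = 0.0048). The WT call was lost without replicate A of either Naïve group (adjusted p = 0.051 and 0.058) and with only the arrays compared (adjusted p = 0.062), and Z-scores of the uncorrected intensities gave -0.19 in WT (adjusted p = 0.28) and -0.25 in deficient cells (adjusted p = 0.15). A second Phc1 probe, detected on 22 of 24 arrays, was lower in all 6 state comparisons (-0.82 to -0.53), including resting Th2 against resting Naïve cells (-0.53 in WT, adjusted p = 0.0079), where the brighter probe gave -0.29 (adjusted p = 0.13), or -0.41 without resting Naïve WT replicate C (adjusted p = 0.040). Another probe was detected on 1 array only, in resting Naïve deficient cells, and was kept through that array. It passed the test in 1 comparison, Naïve stimulation of deficient cells (-0.37, adjusted p = 0.036). That array is on the higher side of this comparison, so the pass gives no separate support.

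Few differences of the remaining PRC1 genes passed the test. Ring1, an E3 ligase for histone H2A, differed by -0.50 between resting Th2 and resting Naïve WT cells (adjusted p = 0.027), but its arrays overlapped (6.83, 6.03 and 6.24 against 6.77, 7.16 and 6.67) and the call was lost without resting Naïve replicate B (adjusted p = 0.15) or resting Th2 replicate B or C (adjusted p = 0.17 and 0.098). It was also lost with only the arrays compared (adjusted p = 0.18) and with Z-scores of the uncorrected intensities (-0.18, adjusted p = 0.38). Rnf2, its paralog, was detected on only 12 of 24 arrays and read 4.27 to 5.17. Phc2, a relative of Phc1, read 8.25 to 9.60. No state difference of Rnf2 or Phc2 passed the test in either genotype, except Rnf2 with Th2 stimulation of deficient cells without stimulated Th2 KO replicate A (0.45, adjusted p = 0.049).

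Counted over the 10 members, Naïve stimulation raised 3 (Ezh2, Eed and Bmi1) and lowered 3 (Ezh1, Phc1 and Cbx7) in WT cells, where 43.6% of all probes were called, 23.6% higher and 20% lower. The members' median difference was 0.09, against 0.01 over all probes. In deficient cells 3 rose (Ezh2, Eed and Suz12) and the same 3 as in WT fell, beside 41.6% of probes (22.3% higher, 19.3% lower). For resting Th2 against resting Naïve cells, 1 was higher (Ezh2) and 2 were lower (Ring1 and Cbx7) in WT cells, beside 34.4% of probes (18.4% higher, 16% lower). In deficient cells 1 was higher (Ezh2) and 1 lower (Cbx7), beside 34.7% (18.8% higher, 15.9% lower). Th2 stimulation raised 0 and lowered 2 (Ezh2 and Phc1) in WT cells, beside 27.3% of probes (13% higher, 14.3% lower). In deficient cells it raised 1 (Eed) and lowered 3 (Suz12, Phc1 and Cbx7), beside 25.8% (12% higher, 13.8% lower).

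**Figure D3:**
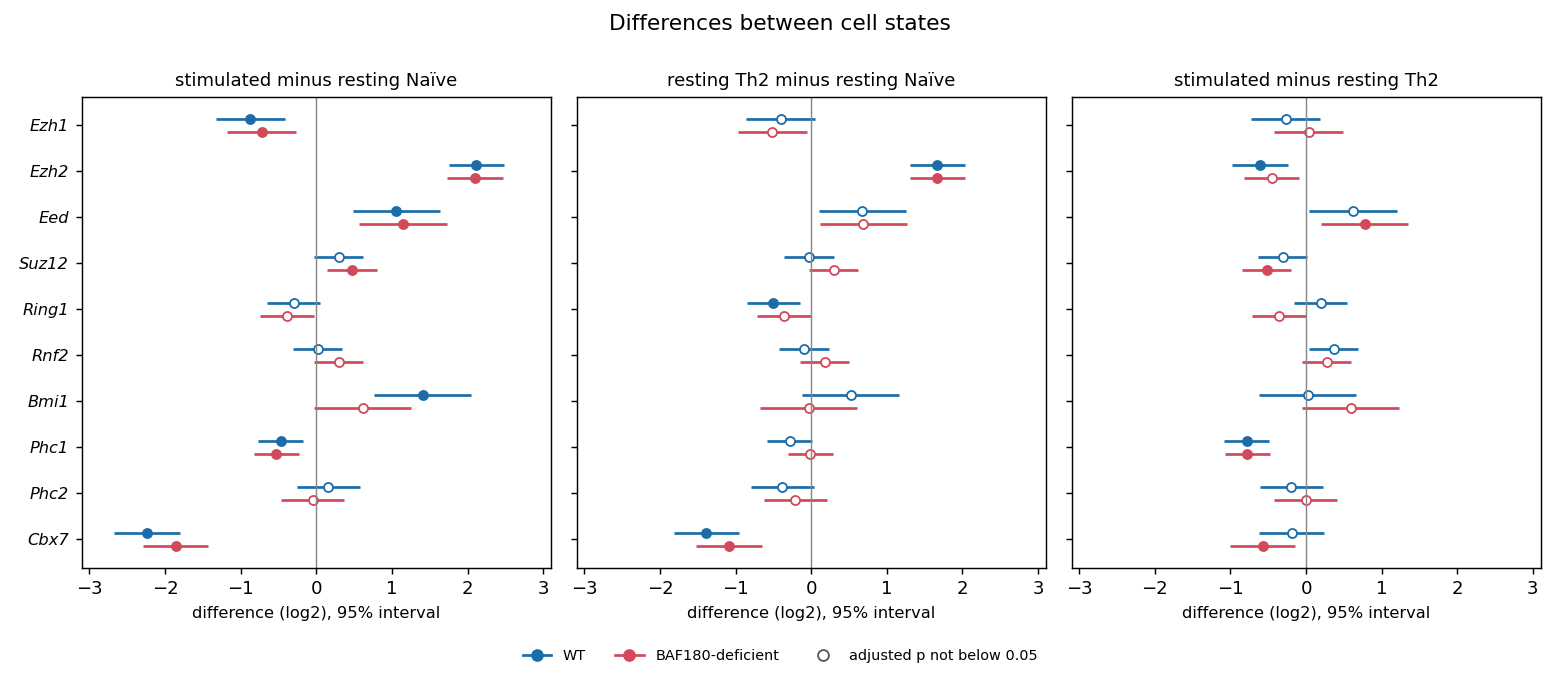
Difference between cell states (log2) for each member with its 95% confidence interval from limma, WT in blue and BAF180-deficient in red; filled circles mark an adjusted p below 0.05. Ezh2 lies near 2.1 and Cbx7 near -2 with Naïve stimulation in both genotypes, and both are closer to 0 with Th2 stimulation.

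BAF180 deletion was then compared in each state, to ask whether these levels depend on BAF180. A gene was called here by the 4 criteria of the methods (Z-ratio beyond 1.5, FDR below 0.3, p below 0.05 and mean signal above 0). The p and FDR came from limma on the normalized intensities, not from the tests of the study. Every mean signal is above 0 after this normalization, so that criterion excluded no probe. None of the 10 members was called in any state, where these criteria called 0.681% of probes in resting Naïve, 0.112% in stimulated Naïve, 0.0842% in resting Th2 and 0.0913% in stimulated Th2 cells. Before adjustment, 0, 1, 1 and 1 members had p below 0.05 in these states, beside 6.83%, 2.25%, 3.43% and 2.79% of probes. For the mean over the 4 states 0 members were called at an adjusted p below 0.05, beside 0.309% of probes, and 1 (Phc1) had an unadjusted p below 0.05, beside 7.52%. The difference in Ezh2 was -0.02 (95% interval -0.39 to 0.34) in resting Naïve, -0.04 (-0.40 to 0.33) in stimulated Naïve, -0.02 (-0.39 to 0.34) in resting Th2 and 0.13 (-0.24 to 0.49) in stimulated Th2 cells. For Cbx7 it was -0.17, 0.21, 0.13 and -0.25, with intervals reaching from -0.69 to 0.64. Bmi1 had the widest intervals, which reached from -1.18 to 0.92 over the 4 states.

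Phc1 had the smallest unadjusted p values. It read 7.02, 7.15 and 7.07 in WT against 7.40, 7.65 and 7.40 in deficient resting Th2 cells, and 6.10, 6.21 and 6.57 against 6.72, 6.58 and 6.83 in stimulated Th2 cells. The groups did not overlap in either state, as was so for 10.1% and 7.31% of all probes. The differences were 0.41 (95% interval 0.11 to 0.70) and 0.42 (0.12 to 0.71), each with an adjusted p of 1.00 in limma, and the mean over 4 states was 0.26 (adjusted p = 0.16). The second Phc1 probe differed by 0.10 and 0.14 in the Th2 states. For Phc2 the difference in stimulated Naïve cells was -0.49 (-0.91 to -0.07, adjusted p = 1.00), with overlapping arrays. Interactions, which ask whether a response to stimulation or differentiation differed between genotypes, called 0 members in each of the 3 tests, beside 0.00702%, 0.00702% and 0% of probes. Ring1, in the Th2 stimulation test, was the 1 member with an unadjusted p below 0.05, where 2.31%, 2.72% and 1.8% of probes had one. The Bmi1 rise with Naïve stimulation, called only in WT cells, is therefore not shown to differ between genotypes.

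**Figure D4:**
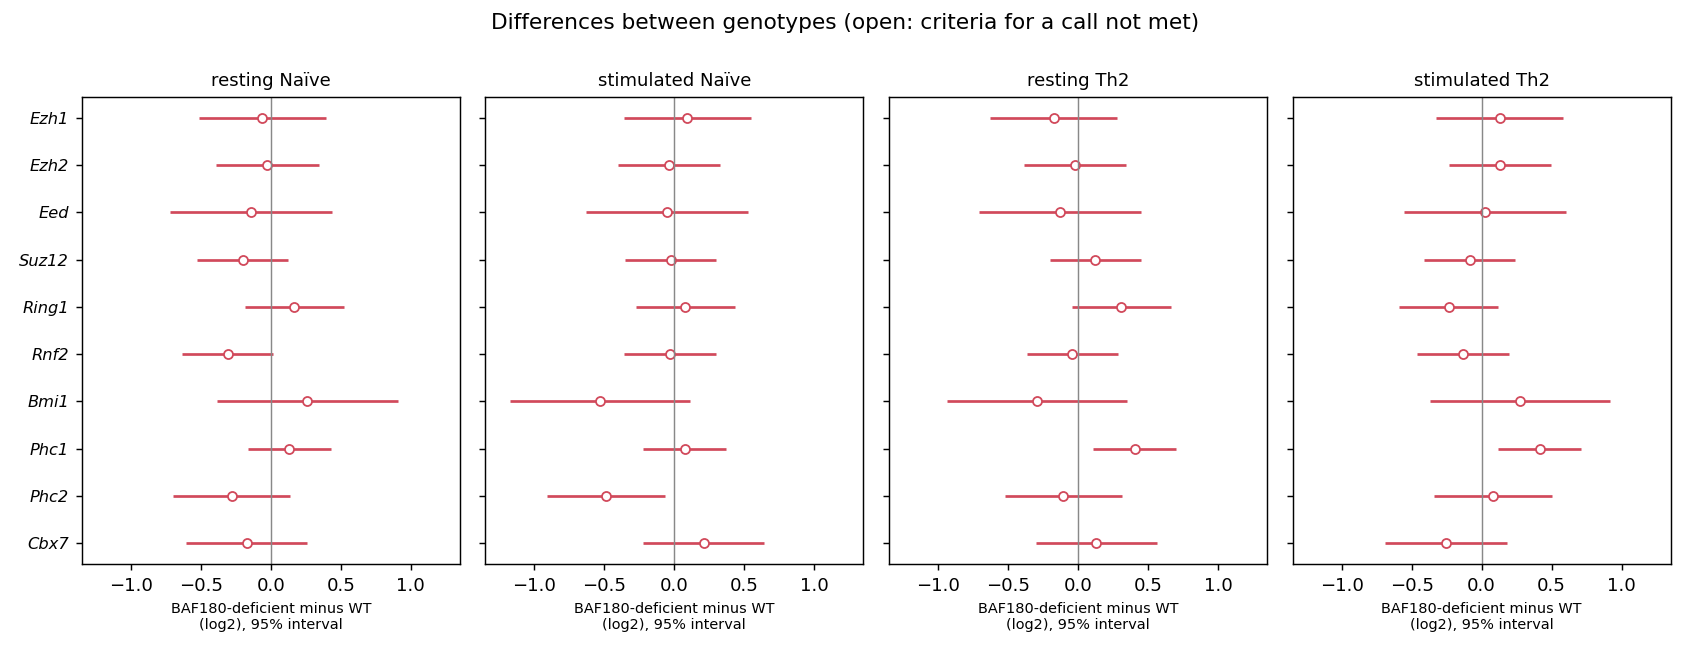
BAF180-deficient minus WT difference (log2) of each member in the 4 states with its 95% confidence interval; open circles mark differences that did not meet the criteria for a call. All differences lie between -0.53 and 0.42, and only the Phc1 intervals in both Th2 states and the Phc2 interval in stimulated Naïve cells leave out 0.

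Other genes of the pathway were taken from lists, of which 4 of 7 further PRC2 genes, 13 of 19 further PRC1 genes, 5 of 6 opposing enzymes and 3 of 5 textbook target genes had a kept probe. Each gene is given by its brightest kept probe. Further kept probes, among them those of E2f6, Cdkn2a, Kdm6a, Kdm6b and Rbbp7, were not tested. With Naïve stimulation in WT cells 2 of the PRC2 genes rose and 0 fell, 4 of the PRC1 genes rose and 3 fell, and 1 of the opposing enzymes rose and 2 fell, beside the 23.6% of all probes higher and 20% lower. Between resting Th2 and resting Naïve cells these counts were 2 and 0, 4 and 2, and 0 and 2, beside 18.4% and 16% of probes. With Th2 stimulation they were 0 and 1, 2 and 2, and 2 and 1, beside 13% and 14.3%. Of the target genes 0, 2 and 2 rose and 1, 1 and 0 fell in the 3 comparisons. None of these genes was called between genotypes by the 4 criteria, which called at most 0.681% of probes in a state. The summed linear level of the 3 kept target genes was higher in deficient than in WT Th2 cells without overlap. It was 138 to 159 against 89.6 to 122 in resting and 215 to 327 against 168 to 213 in stimulated cells. Among single probes, 10.1% and 7.31% did not overlap between genotypes in these states. The 3 genes were Cdkn2a, Cdkn2b and Hoxa7 (detected on 5 of 24 arrays), and their separate parts in the sum were not tested. Cdkn2a alone overlapped in stimulated Th2 cells, as given below.

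The enzymes that remove the PRC2 mark are in the opposing list. Kdm6b, an inducible histone H3 demethylase, read 7.12, 7.37 and 6.43 in resting Naïve, 5.73, 6.32 and 6.30 in stimulated Naïve, 4.97, 5.28 and 4.66 in resting Th2 and 8.03, 7.80 and 7.38 in stimulated Th2 WT cells. It differed by -2.01 between resting Th2 and resting Naïve cells (4.01-fold lower, adjusted p = 1.1e-05; -1.19 with Z-scores of the uncorrected intensities) and rose by 2.77 with Th2 stimulation (6.83-fold, adjusted p = 2.1e-07), and the groups did not overlap. Kdm6a, its X-linked relative, read 9.77, 9.96 and 9.72 in resting Naïve WT cells, between 7.92 and 8.28 in stimulated Naïve and between 8.21 and 8.41 in resting Th2 WT cells. It fell by 1.73 with Naïve stimulation (3.32-fold, adjusted p = 1.2e-07) and differed by -1.51 between resting Th2 and resting Naïve cells (adjusted p = 1.3e-06). BAF180-deficient cells gave -2.33 and 2.47 for Kdm6b and -1.91 and -1.93 for Kdm6a in the same comparisons, all called. The summed linear level of 4 activation genes (Il2ra, Cd69, Tnfrsf9 and Myc) was also lowest in resting Th2 cells, and it was highest in resting Naïve cells. Cd69 was the brightest of the 4, at a mean of 9.78 over 24 arrays against 6.06 to 7.68, and weighs most in the sum. In WT cells the sum was 3035 to 4507 in resting Naïve and 1647 to 2150 in stimulated Naïve cells. The sum was 664 to 721 in resting Th2 and 1985 to 2079 in stimulated Th2 cells. Its part in the Kdm6b differences was not tested.

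Among partners of the complexes, E2f6, a repressor found in a variant PRC1, rose by 1.31 with Naïve stimulation in WT cells (adjusted p = 1.1e-05), and Rbbp7, a histone-binding PRC2 subunit, by 1.30 (adjusted p = 0.00061). Phf19, an accessory PRC2 subunit, was not detected on any resting Naïve or stimulated Th2 array. WT arrays read 5.31, 5.35 and 5.79 in resting Th2 cells, which was at least 1.54-fold above resting Naïve cells (adjusted p = 3.4e-05) and at least 1.77-fold above stimulated Th2 cells (adjusted p = 0.00013). Its measured differences shrank from 1.22 and -1.09 to 0.73 and -0.62 without background correction and to 0.63 and -0.67 with Z-scores of the uncorrected intensities. Cdkn2a, a cell cycle inhibitor gene and classical Polycomb target, was not detected on any resting Naïve array and read 5.75, 5.19 and 5.34 in resting Th2 and 6.94, 6.90 and 6.18 in stimulated Th2 WT cells, a rise of 1.25 with Th2 stimulation (2.37-fold, adjusted p = 0.00017). BAF180-deficient arrays read 6.33, 5.94 and 6.496 in resting Th2 cells, above all WT arrays, a difference of 0.83 (95% interval 0.37 to 1.28) with an adjusted p of 0.46, which met the 4 criteria only when each state was normalized on its own (adjusted p = 0.25). In stimulated Th2 cells they read 7.67, 6.90 and 6.70 and overlapped (0.42, adjusted p = 1.00). For E2f6 the genotype differences were 0.39 in resting and 0.45 in stimulated Th2 cells, without overlap in either (adjusted p = 1.00 for both). Of all probes, 10.1% in resting and 7.31% in stimulated Th2 cells did not overlap between genotypes. The share in resting Th2 cells stands beside the Cdkn2a arrays as well.

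**Figure D5:**
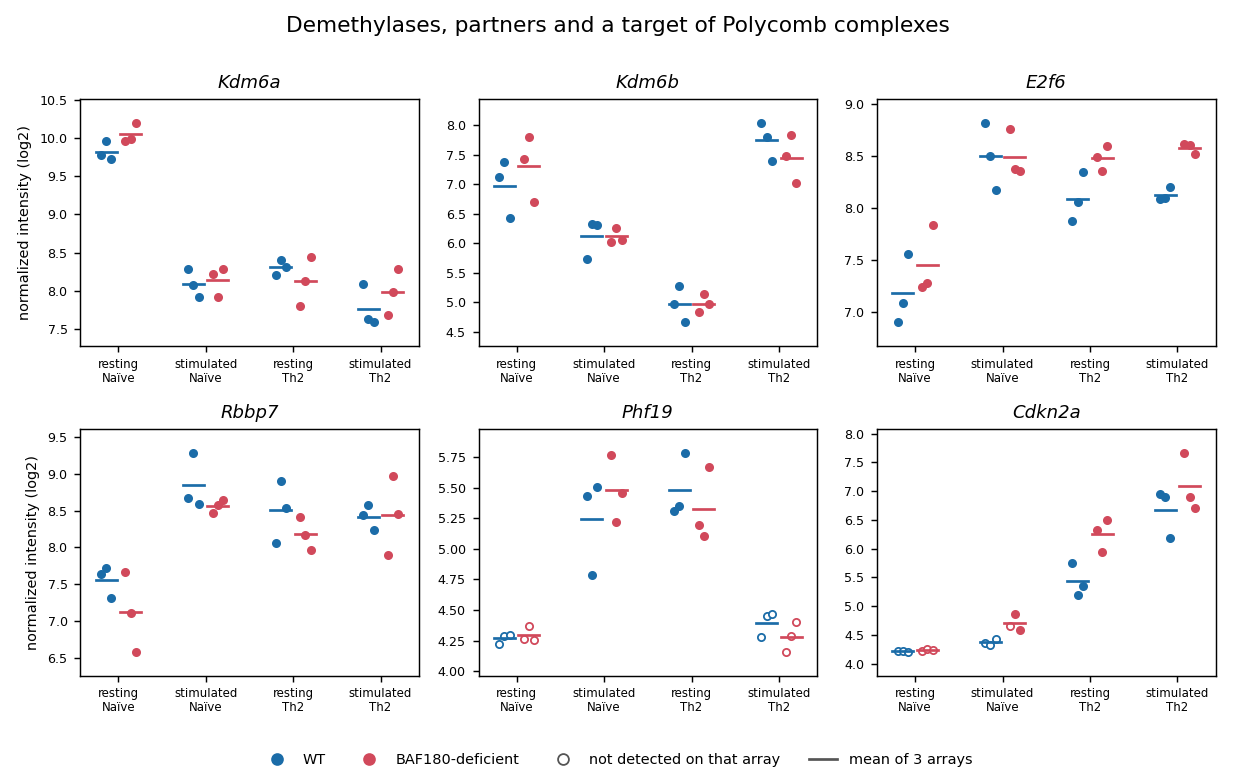
Normalized intensity (log2) of 2 demethylase genes (Kdm6a, Kdm6b), 3 partner genes (E2f6, Rbbp7, Phf19) and the target gene Cdkn2a by state, with 3 arrays per group, open circles for arrays without detection and lines for group means; each panel has its own vertical axis. Kdm6b is lowest in resting Th2 cells (4.66 to 5.28) and highest or near its highest in stimulated Th2 cells (7.02 to 8.03), and Kdm6a is above 9.7 in resting Naïve cells only.

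The genes whose pattern over the 24 arrays was most like that of Ezh2 were Spdl1 (r = 0.97), Mcm10 (0.97), Mcm5 (0.96), Tipin (0.96) and Tpi1 (0.95), and those most like Cbx7 were Sesn1 (0.94), Adssl1 (0.93), Fbxl12 (0.93), Pld3 (0.93) and Blvrb (0.93). For Ezh1 they were Cdkn1c (0.87), Esyt2 (0.86), Bcl11b (0.85), Ubb-ps (0.85) and Adgre5 (0.84). Ezh2 and Cbx7 ran opposite to each other (r = -0.85). All these arrays share their states, and the correlations are descriptions.

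The promoters of all members were searched for the E2F motifs TTTCCCGC and TTTGGCGC on both strands. Windows ran from 250 bases before to 50 bases after the start (RefSeq, GRCm38.p6). All 10 genes matched, with 12 windows. Of these 2 held a motif, in Ezh2 and in Suz12, beside 1.56% of all 32851 windows. The stretches are shown with the motif in capitals, 5′ to 3′ on the strand of the gene, for Ezh2 at chr6:47595015-47595044 (minus strand, motif from position 4 after the start) and for Suz12 at chr11:79992856-79992950 (plus strand, motif from position -219):
Ezh2: gcgattgggttgctgcgTTTGGCGCtcggt
Suz12: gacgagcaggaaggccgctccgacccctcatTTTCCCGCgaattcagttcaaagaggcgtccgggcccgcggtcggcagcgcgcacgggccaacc
The Cbx7, Ezh1 and Eed windows held neither motif. A match describes letters only, and the Ezh2 and Cbx7 gene models reach further upstream than the starts used. For Cbx7, on the minus strand, the gene model reaches to 79971143 while the window ends at 79932896. Its result therefore covers this start only.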

How the data were processed

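Illumina MouseRef-8 v2 BeadChips measured RNA of 24 samples. The authors deposited an average bead intensity per probe and array, neither normalized nor background-subtracted, and a detection p-value per probe, from GenomeStudio 1.6.0 per the submitters' processing notes. Intensities were processed with neqc (limma 3.58.1, R 4.3.3; background inferred from the detection p-values, offset 16, quantile normalization over 24 arrays). Probes detected (p at most 0.02) on at least 1 array were fitted with 8 group means and eBayes, and p-values were adjusted over 14246 probes. Z-ratios were computed on these values, and p and FDR of the 4 criteria came from limma. A gene was "at least" N-fold higher where a group had no array with detection.

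The members and lists were chosen with earlier results of these data known. The text names all members, Pbrm1, the 3 largest called differences of the other Polycomb genes per WT state comparison, and the 5 genes most like Ezh2, Ezh1 and Cbx7. Current symbols came from a RefSeq gene table, and 321 probes without a match kept the deposited symbol. Replicate letters were read as pairs: deviations of same-letter WT and deficient arrays from their group means, pooled over states, correlated at 0.301, 0.136 and 0.516, and the study describes 3 pairs of mice. Whether all replicates are separate animals is not stated for each state, so p-values measure the spread between these samples. Their number, 3 per group, limits precision. No array was a copy (at most 0.973% equal intensities). Alternatives were other normalization (Z-scores of uncorrected log2 intensities within each array, rescaled to log2 units), background correction, filters, fits, blocks, probes and leaving out each array.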

Additional observations from a re-analysis of the deposited data

Results flagged for a closer look

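The Cbx7 difference between genotypes had opposite signs in stimulated Naïve and stimulated Th2 cells. WT and deficient arrays overlapped in Naïve cells (5.18 to 5.53 and 5.52 to 5.61). They also overlapped in Th2 cells (5.59 to 6.49 and 5.57 to 5.89). Within replicate letters A, B and C, the deficient array minus the WT array gave 0.04, 0.44 and 0.15 in stimulated Naïve cells and -0.11, -0.63 and -0.02 in stimulated Th2 cells on the log2 scale, so every pair was higher in one state and lower in the other. The mean differences were 0.46 apart. A search of all members over the state pairs without an interaction test picked this pattern, and its share over all probes was not counted. This contrast between the stimulated states was not tested, and neither difference alone passed the test (adjusted p = 1.00 in limma for each).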

How the results depend on the processing

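Of 23 called member differences between states, 14 kept their call under every alternative other than another probe: those of Ezh2 and Cbx7 from resting Naïve cells, the rises of Eed and of WT Bmi1 and the fall of WT Ezh1 with Naïve stimulation, and the falls of Phc1 with Th2 stimulation. The cause of the changes listed here was not tested. With the replicate block (paired letters), KO Th2 stimulation gained Ezh2 (-0.46, adjusted p = 0.044) and lost Cbx7 (-0.57, adjusted p = 0.056), and no other member call changed. The block on letter within genotype gained Ezh2 there (adjusted p = 0.038) and Ezh1 between KO resting Th2 and Naïve cells (-0.52, adjusted p = 0.035), and lost Eed (0.77, adjusted p = 0.060) and Cbx7 (adjusted p = 0.073) with KO Th2 stimulation. With Z-scores or with no filter on dim probes, 2 members were called with KO Th2 stimulation in place of 4. Leaving out 1 array gave 1 to 4 calls there and 1 to 2 with WT Th2 stimulation.

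Z-scores turned the sign of Rnf2 (-0.12) with WT Naïve stimulation, Phc2 (0.038) with KO Naïve stimulation, Rnf2 (-0.073) and Phc1 (0.22) between KO resting Th2 and Naïve cells, and the Ezh2 genotype difference in resting Naïve cells (0.018), none of them called. The Phc1 probe detected on 1 array gave 0.034 with WT Naïve stimulation and 0.070 and 0.017 with WT and KO Th2 stimulation, where the brightest probe was called lower, and genotype differences of -0.13 in stimulated Naïve and -0.013 in stimulated Th2 cells. The dimmer Ezh2 probe gave genotype differences of 0.18 in stimulated Naïve cells and -0.026 over 4 states.

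Leaving out 1 array turned the sign of differences that were not called. With WT Naïve stimulation Rnf2 ranged from -0.12 to 0.13 and Phc2 from -0.0097 to 0.38. Between WT resting Th2 and Naïve cells Suz12 ranged from -0.14 to 0.16, and with WT Th2 stimulation Bmi1 ranged from -0.19 to 0.23 and Cbx7 from -0.42 to 0.029. In KO cells Phc2 ranged from -0.16 to 0.013 with Naïve stimulation, Bmi1 from -0.19 to 0.10 and Phc1 from -0.097 to 0.032 between resting Th2 and Naïve cells, and Ezh1 from -0.081 to 0.22 and Phc2 from -0.18 to 0.18 with Th2 stimulation. The genotype difference of Ezh2 ranged from -0.21 to 0.17 in resting Naïve, -0.068 to 0.0077 in stimulated Naïve and -0.14 to 0.12 in resting Th2 cells. That of Phc1 ranged from -0.034 to 0.13 in stimulated Naïve cells, and that of Phc2 from -0.18 to 0.035 in resting and -0.090 to 0.26 in stimulated Th2 cells. Over 4 states the ranges were -0.15 to 0.022 for Bmi1, -0.082 to 0.037 for Cbx7 and -0.035 to 0.060 for Ezh2.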
